A study of Mus musculus with 4 samples.

Results

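The collagen genes were followed in 4 organ primordia at embryonic day E11.5, taken from ICR mice, which are outbred. Lung, esophagus, stomach and intestine were each dissected from embryos for which the labels name no mutant allele and no treatment, and each gave total RNA for 1 array. The labels do not say how many embryos were pooled or which embryos gave which organ. A gene was included where a probe's accession carried a mouse symbol of the form Col, a number, the letter a and a number. This rule used names only and no measured value, but it was set with earlier results of these data known. Of 44 such symbols in the RefSeq gene table, 39 had at least 1 probe (65 probes in all), out of 16995 genes with a symbol on the array. Col12a1, Col20a1, Col22a1, Col6a3 and Col6a5 had no matched probe and are not analysed here. By textbook class, 11 of the 39 genes encode chains of fibrillar collagens, 8 encode basement membrane collagens, 6 encode fibril-associated collagens with interrupted triple helices (FACIT) and 14 encode other collagens. The stomach sample has a misspelt title, and the RNA extraction text of all 4 samples names stomach, so the organ was taken from each sample's title and tissue label.

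Collagens are secreted proteins built from 3 chains wound into a triple helix. Fibrillar collagens (types I, II, III, V and XI) assemble into the fibres that give connective tissue and cartilage their strength, type IV forms the sheet under epithelia and around vessels, and FACIT collagens sit on the surface of fibrils. In the embryonic gut and lung, mesenchymal cells are the main source of the interstitial collagens, and the epithelium and vessels rest on basement membrane collagens. Chains of 1 collagen are often encoded by separate genes whose products must be made together, so that chain partners are described side by side here.

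The promoters of 4 of these genes are shown as examples, and no result below rests on them. Col1a2, Col8a1 and Col8a2 were highest on the esophagus array. Col3a1 was highest on the lung array by its brightest probe, a place that did not hold under all settings. Each window holds the 250 bases before the RefSeq transcription start in build GRCm38.p6, written 5′ to 3′ on the gene's strand, with every match on either strand to a GC box (GGGCGG), to a CCAAT box or to a TATA box of the letters TATAAA in capitals. Col1a2 lies at chr6:4505368-4505617 on the plus strand, Col3a1 at chr1:45311288-45311537 on the plus strand, Col8a1 at chr16:57754738-57754987 on the minus strand and Col8a2 at chr4:126286544-126286793 on the plus strand.
Col1a2: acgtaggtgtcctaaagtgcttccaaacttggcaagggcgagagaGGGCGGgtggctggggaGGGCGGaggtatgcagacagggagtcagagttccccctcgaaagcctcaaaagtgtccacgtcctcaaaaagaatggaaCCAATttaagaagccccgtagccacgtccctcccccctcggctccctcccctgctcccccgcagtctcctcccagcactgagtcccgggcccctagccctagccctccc
Col3a1: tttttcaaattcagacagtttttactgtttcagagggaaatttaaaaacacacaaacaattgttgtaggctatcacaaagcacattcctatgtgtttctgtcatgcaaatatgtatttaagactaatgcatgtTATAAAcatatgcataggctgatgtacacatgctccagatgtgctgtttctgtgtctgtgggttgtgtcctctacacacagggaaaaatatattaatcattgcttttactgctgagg
Col8a1: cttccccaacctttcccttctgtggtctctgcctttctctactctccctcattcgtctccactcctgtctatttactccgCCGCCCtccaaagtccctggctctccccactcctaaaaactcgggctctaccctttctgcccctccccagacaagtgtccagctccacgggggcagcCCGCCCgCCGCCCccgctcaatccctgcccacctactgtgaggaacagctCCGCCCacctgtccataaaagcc
Col8a2: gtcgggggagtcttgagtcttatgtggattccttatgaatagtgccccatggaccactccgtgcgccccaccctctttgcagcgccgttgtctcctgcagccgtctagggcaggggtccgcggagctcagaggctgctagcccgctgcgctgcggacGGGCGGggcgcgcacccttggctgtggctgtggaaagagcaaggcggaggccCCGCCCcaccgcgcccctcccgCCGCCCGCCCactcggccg
The Col8a1 and Col8a2 windows each hold 4 matches to GGGCGG and none to the other motifs, and 2 of the Col8a2 matches overlap. The Col1a2 window holds 2 matches to GGGCGG and also 1 match to the CCAAT box. The Col3a1 window is AT-rich, with a GC content of 35.2% against 62.0% for Col1a2, and holds 1 TATAAA and neither of the other motifs. Across all collagens with a window (32 of 39 genes, 35 windows), GGGCGG occurred in 21 windows (60%), against 32.74% of all 32851 promoter windows of this length. CCAAT occurred in 13 collagen windows (37.14%, against 33.85% of all) and TATAAA in 5 (14.29%, against 12.37%). These counts describe letters in the windows and not sites of binding, and their relation to the levels on the arrays was not tested. Col4a1 and Col4a2, which are read in opposite directions from 1 shared region, have start sites 21 bases apart, and Col4a6 and Col4a5, another such pair, have start sites 1343 bases apart.

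The value of a probe was its log2 processed signal minus the 75th percentile of its own array, so that 0 is the signal that 75% of an array's probes lie under, and a difference of 1 between organs is a 2-fold difference. A gene took the value of its brightest probe. Probes differ in how well they bind, so levels are compared between organs for 1 gene and not between genes. There was 1 array per organ and no replicate of any organ: differences are sizes on these 4 arrays, and neither a test nor a p-value is given. The only error measured is that between copies of a probe on 1 array, with a median SD of 0.11 in lung and 0.09, 0.08 and 0.07 in esophagus, stomach and intestine on the log2 scale. It leaves out differences between embryos, dissections and labelling reactions.

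The lung array was dimmer than the others: 39.0% of its spots were well above background, against 67.9% to 74.0% of spots on the gut arrays, and its 75th percentile signal was 32.0 against 320.2 to 991. Of the 39 collagen genes, 27 were well above background in lung, and 36, 35 and 34 were in esophagus, stomach and intestine. For a gene too dim on 1 array of a pair, the fold is given as a bound ("at least"). Col4a3 (a kidney and lung basement membrane chain), Col10a1 (the collagen of hypertrophic cartilage) and Col28a1 were not well above background on any array. Transcription factors that mark lung, stomach and intestine followed the labels. Nkx2-1 (lung and thyroid) was highest on the lung array, Barx1 (stomach mesenchyme) on the stomach array and Cdx2 (intestinal epithelium) on the intestine array. The esophagus label had no such marker: Sox2 was highest there but only 1.38-fold above stomach. Nkx2-1 and Barx1 were also well above background on the esophagus array, at −1.10 and 0.92. The arrays also differed in markers of other tissues, given as summed levels in multiples of the array's 75th percentile signal. Epithelial markers summed to 44.0 in lung and 31.7, 95.2 and 47.6 in esophagus, stomach and intestine. Most of each sum came from Krt8 and Krt18, which were highest in stomach, while Epcam, Cdh1 and Cldn6 were highest in lung. The median over the epithelial markers of an organ's level minus the mean of the others was 0.36, −0.72, 0.04 and −0.13 in that order. Erythroid markers summed to 776, 223, 353 and 225 in the same order. Schwann and neural crest markers summed to 4.04, 12.1, 6.78 and 5.14. The sums of muscle, mesenchyme, cartilage, liver and endothelial markers stand beside results further on, and the part of any of these tissues in the collagen levels was not tested.

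Relative to all genes, collagen genes as a group stood higher on the esophagus array than on any of the others. Against stomach, 26 of 36 genes were higher in esophagus and 10 lower, with a median difference of 0.52 on the log2 scale, while the median over all 13732 genes compared was −0.16. Against intestine, 21 of 36 were higher in esophagus and 15 lower, with a median difference of 0.34 against −0.13 over all genes. Between lung and esophagus, 20 of 29 collagen genes were higher in esophagus, with a median lung minus esophagus difference of −0.37, against 0.28 over all genes. Centring arrays on their median shifted all genes by −0.50 for esophagus minus intestine and by 0.59 for lung minus esophagus, enough to turn the sign of both collagen medians. Such a centring adds 1 constant to each array, so by construction it leaves the values relative to all genes nearly as they were. The comparisons share the esophagus array and are not independent of each other.

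The count of collagen genes at least 2-fold apart was also highest for the esophagus array over the other gut arrays. Esophagus exceeded stomach at least 2-fold in 10 of 36 collagen genes (27.8%), against 5.63% of all genes, and stomach exceeded esophagus in 1 of 36 (Col14a1), against 4.27%, and these counts ran from 7 to 11 and from 1 to 3 over the other settings. Esophagus exceeded intestine at least 2-fold in 13 of 36 collagen genes (36.1%), against 11.9% of all genes, and intestine exceeded esophagus in 5 of 36, against 8.71%, and these counts ran from 8 to 15, the lowest with only genes above background on all arrays, and from 4 to 9, the highest with median centring. Between stomach and intestine the counts were close in both directions: 5 of 35 collagen genes were higher in stomach (background 7.52%) and 6 of 35 in intestine (background 4.87%), running from 2 to 9 and from 5 to 8. The median stomach minus intestine difference was −0.07, against 0.04 over all genes.

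**Figure D1:**
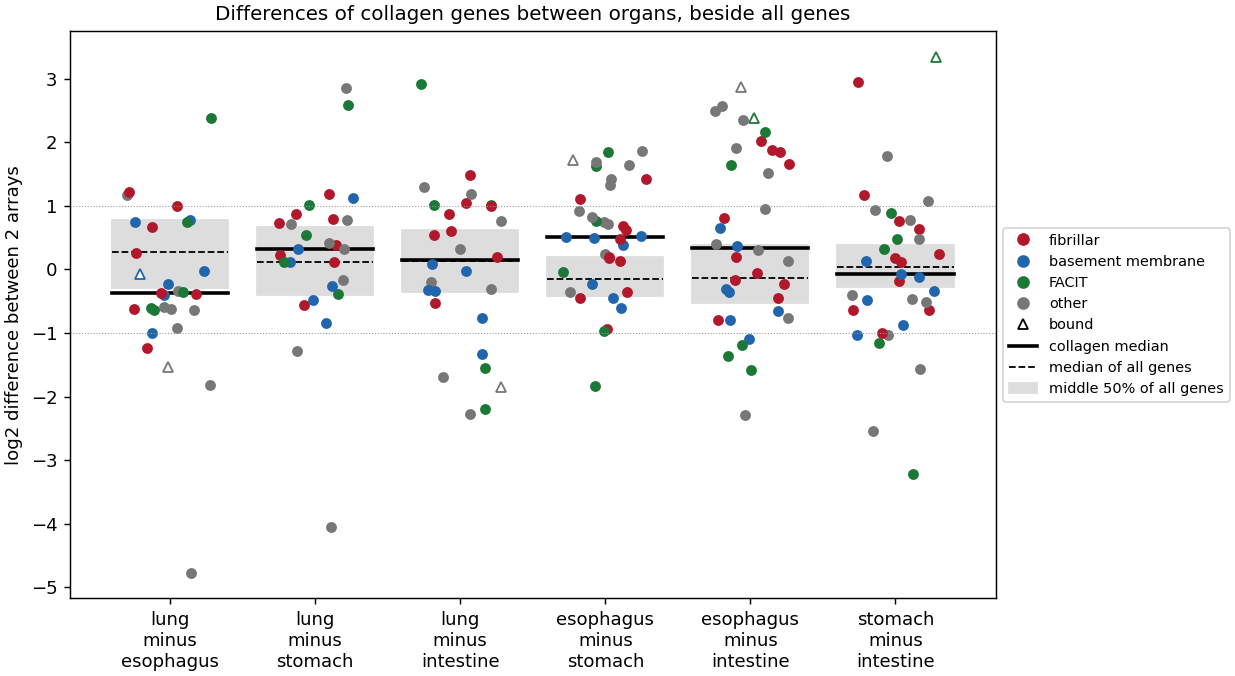
Log2 difference of each collagen gene between 2 arrays (points, coloured by class; open triangles are bounds), with the collagen median (solid line), the median of all genes (dashed line) and the middle 50% of all genes (grey). The collagen median lies above the grey band for esophagus minus stomach (0.52) and below it for lung minus esophagus (−0.37), and near the median of all genes for lung minus intestine and stomach minus intestine.

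Comparisons with lung covered fewer genes, because 12 of the 39 collagens were not well above background there. Lung exceeded esophagus at least 2-fold in 4 of 29 genes (background 16.2%), and esophagus exceeded lung in 4 of 29 (background 9.42%). Lung exceeded stomach in 5 of 27 (background 14%) and stomach exceeded lung in 2 of 27 (background 9.87%). Lung exceeded intestine in 7 of 28 (background 12.2%) and intestine exceeded lung in 6 of 28 (background 8.4%), and collagens thus differed between these arrays in both directions. Over the other settings these counts ran from 1 to 8 for lung over esophagus, 2 to 9 for esophagus over lung, 2 to 10 for lung over stomach, 1 to 4 for stomach over lung, 3 to 13 for lung over intestine and 5 to 7 for intestine over lung.

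**Figure D2:**
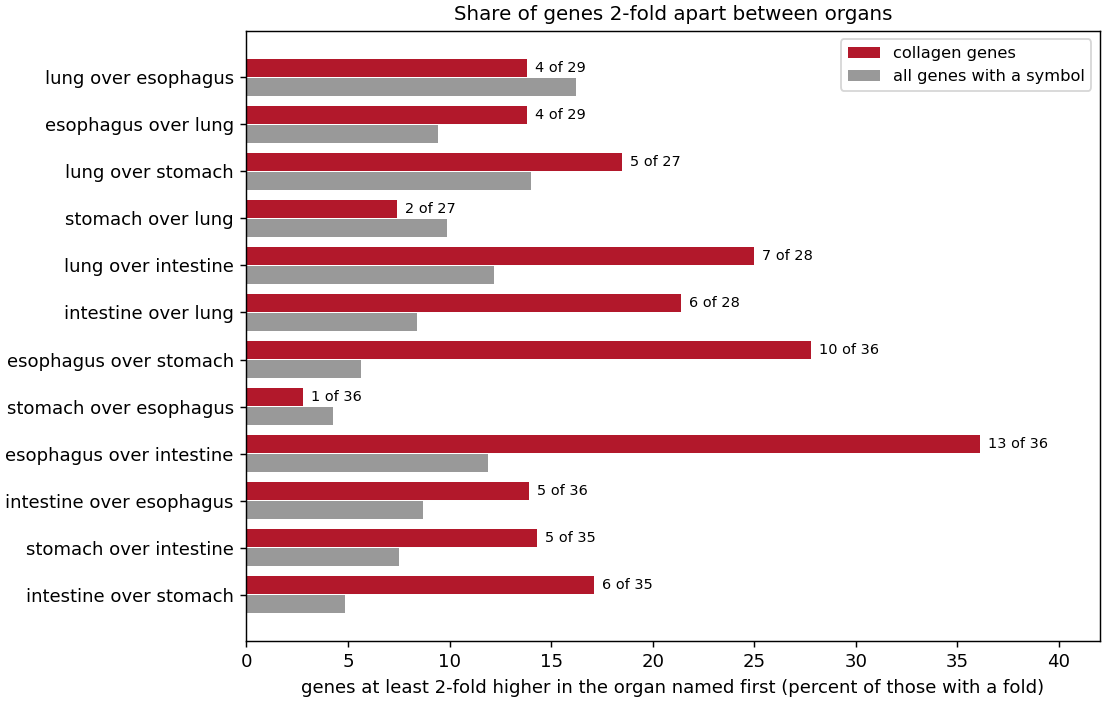
Percent of genes at least 2-fold higher in the organ named first, for collagen genes (red, with counts) and all genes with a symbol (grey), over genes with a fold in that pair. The longest red bars are esophagus over intestine (13 of 36) and esophagus over stomach (10 of 36).

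Among the 27 collagen genes well above background on all 4 arrays, 11 had their highest level in esophagus, where 13.2% of all 9497 such genes did. Lung was highest for 8 (48.9% of all genes), intestine for 8 (19.6%) and stomach for none (18.3%). Stomach was in turn the lowest array for 10 of the 27 (14.3% of all genes), intestine for 8 (22.8%), lung for 6 (20.2%) and esophagus for 3 (42.8%). The 11 genes highest in esophagus were Col1a1, Col1a2, Col2a1, Col6a1, Col6a2, Col7a1, Col8a1, Col8a2, Col15a1, Col16a1 and Col26a1. For 7 of them (Col1a1, Col1a2, Col8a1, Col8a2, Col15a1, Col16a1 and Col26a1) esophagus was highest under each of 4 other scalings or background corrections, and Col2a1, Col6a1, Col6a2 and Col7a1 lost that place with centring on the median. The counts also depended on which arrays were set beside each other. Without the lung array, 17 of 34 collagen genes were highest in esophagus (26.9% of all genes were) and 7 lowest (48.6%), and intestine was highest for 13 (39.3%) and lowest for 14 (34.9%). Without the esophagus array lung was highest for 13 of 27 (53.0% of all genes). Without the stomach array lung was lowest for 11 of 27 (21.3%) and esophagus for 6 (50.5%). Stomach was highest for 4 genes without the lung, the esophagus or the intestine array, where it was highest for 33.8%, 25.8% and 29.1% of all genes.

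Markers of heart and muscle were also highest on the esophagus array. All 5 heart muscle markers (Myl7, Tnnt2, Myh6, Mybpc3 and Nppa) were at least 2-fold above every other array there, and their summed level, in multiples of the array's 75th percentile signal, was 94.1 in esophagus, 7.70 in lung, 1.54 in stomach and 0.702 in intestine. Of the smooth muscle markers, 3 of 4 (Tagln, Myh11 and Cnn1) were at least 2-fold above every other array in esophagus, with summed levels of 120.6 in esophagus, 37.1 in lung, 58.0 in stomach and 50.1 in intestine. Tagln, Myh11 and Cnn1 each lost that place with centring on the median. Of the skeletal muscle markers 2 of 4 (Myog and Actc1) were at least 2-fold above every other array in esophagus, Myog not with normexp. Their list had summed levels of 19.9 in esophagus against 0.949 to 3.05 elsewhere, and Myf5 was not well above background on any array. The mesenchyme markers summed to 64.8 in esophagus, 67.4 in stomach, 69.6 in intestine and 98.3 in lung, and most of each sum came from Vim. Vim read 6.21 in lung and 5.44, 5.36 and 5.52 in esophagus, stomach and intestine. The median over the 5 mesenchyme markers of an organ's level minus the mean of the others had another order. It was −0.40 in lung and 0.05, 0.34 and −0.15 in esophagus, stomach and intestine. The part of these tissues in the collagen levels was not tested, and fewer cells of a type and less RNA per cell cannot be told apart in bulk RNA.

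**Figure D3:**
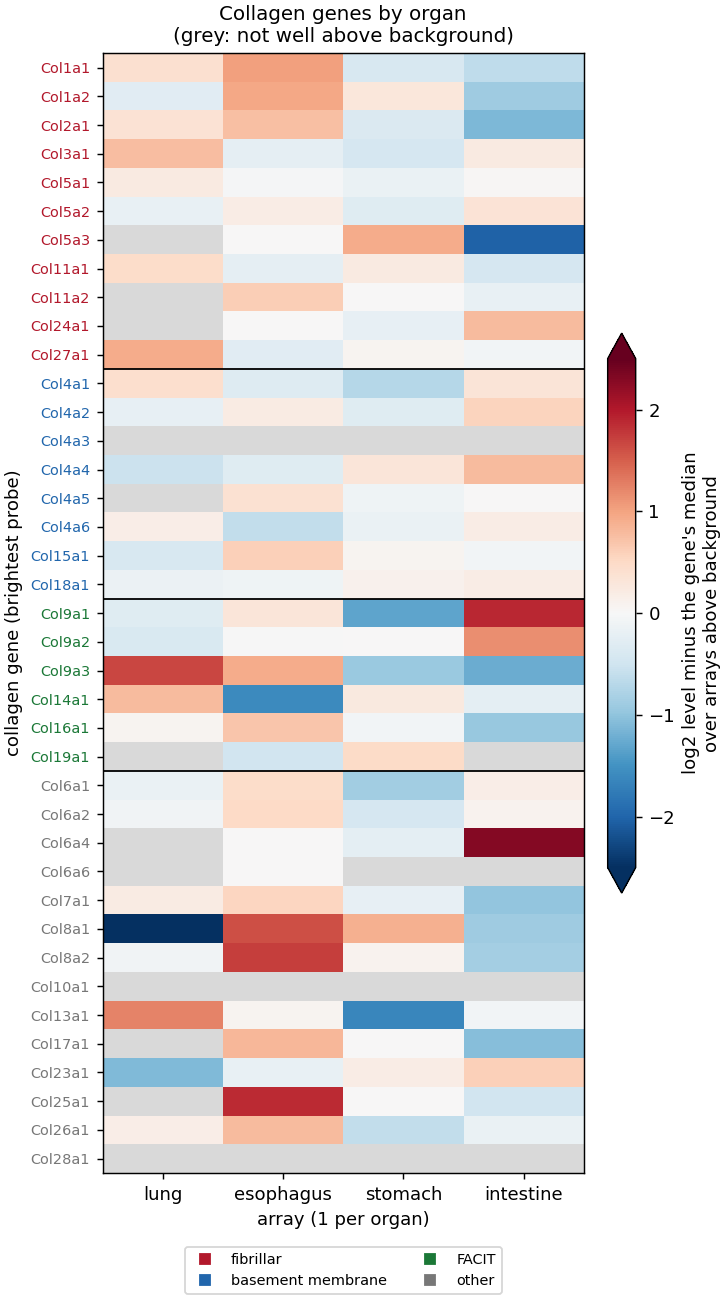
Log2 level of each of 39 collagen genes on each array minus the gene's median over the arrays where it was well above background (colour), with grey where it was not, ordered by class. Col8a1 is the deepest blue in lung (−1.33 against 3.44 in esophagus), and Col9a1, Col9a2 and Col6a4 are darkest red in intestine.

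The fibrillar collagens did not move as 1 group. All 11 genes were detected on at least 1 array and 8 on all 4. Col1a1 and Col1a2 encode the chains of type I collagen, the main fibre of most connective tissue, and both were highest in esophagus and lowest in intestine. Intestine lost the lowest place with normexp for both chains and with median centring for Col1a1. The log2 level of Col1a1 was 5.38 in lung and 6.0, 4.58 and 4.34 in esophagus, stomach and intestine, from a probe with 10 copies per array whose SD was 0.060 to 0.067. Esophagus thus exceeded stomach by 2.68-fold and intestine by 3.17-fold, and lung exceeded intestine by 2.06-fold, a direction that turned with normexp background correction and a size that fell to 1.01-fold with the mean of all probes. The other Col1a1 probes were also highest in esophagus, at 2.42 and 1.85, with 0.86 and 0.11 in stomach and 0.58 and −1.31 in intestine. In lung the first of them read 0.69, under stomach, unlike the brightest probe. The other was not well above background in lung and lay under its intestine level there. Col1a2, measured by a single probe, read 6.18 in lung and 7.42, 6.73 and 5.57 in esophagus, stomach and intestine. Its level in esophagus was 2.36-fold that in lung, 1.61-fold that in stomach and 3.61-fold that in intestine (against lung, 1.58-fold with median centring and 5.33-fold with normexp), so that both type I chains fell in the order esophagus, stomach, intestine, though for Col1a1 the stomach to intestine step was 0.24 on the log2 scale and turned with centring on the median.

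Col3a1 encodes type III collagen, the reticular fibre that accompanies type I in soft organs, and its brightest probe did not share the type I order. That probe read 6.02 in lung and 5.02, 4.83 and 5.47 in esophagus, stomach and intestine, with lung 2.27-fold above stomach. The second Col3a1 probe was not well above background in lung and read 0.03, −0.36 and −1.47 in esophagus, stomach and intestine, which is the order of the type I genes. The probes agreed that esophagus exceeded stomach and differed on intestine, and the difference of lung from esophagus and from stomach turned sign with normexp and with the mean of both probes, so no order for Col3a1 can be read from these arrays.

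Col5a1 and Col5a2, the type V chains that start type I fibrils, differed little between organs by their brightest probes. Col5a1 read 2.95 in lung and 2.70, 2.56 and 2.75 in esophagus, stomach and intestine, and Col5a2 read 1.75, 2.12, 1.64 and 2.28 in the same order. By these probes no pair of organs was over 1.56-fold apart for either gene. The second Col5a1 probe was lowest in lung (−1.51, against 0.44, −0.50 and −0.53 in esophagus, stomach and intestine), unlike the brightest one. By that probe esophagus exceeded lung by 3.85-fold and stomach exceeded lung by 2.01-fold, so the small range of Col5a1 rests on 1 probe. Col5a3, a type V chain with a narrower tissue range, was instead among the most variable fibrillar genes. It read −3.35, −2.43 and −5.38 in esophagus, stomach and intestine, and was not well above background in lung. Stomach exceeded intestine by 7.74-fold and esophagus exceeded intestine by 4.06-fold for this gene (3.79- and 2.68-fold with normexp), whose second probe was not well above background on any array.

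Col2a1 encodes the main fibre of cartilage and is also made in early embryonic epithelia and the notochord. It read 1.90 in lung and 2.29, 1.18 and 0.41 in esophagus, stomach and intestine, over 10 copies of its probe with an SD of 0.053 to 0.11. Esophagus exceeded stomach by 2.16-fold and intestine by 3.67-fold, and lung exceeded intestine by 2.81-fold (1.42-fold with normexp). The second Col2a1 probe gave the same order at 1.74, 1.90, 0.53 and −1.37. Col11a1, which encodes a partner chain in cartilage fibrils, was highest in lung at 2.18, with 1.5, 1.95 and 1.31 in esophagus, stomach and intestine, and its lung place was lost with normexp. The second Col11a1 probe was not well above background in lung and read −0.59, −0.82 and −2.95 in esophagus, stomach and intestine, with the opposite sign for esophagus minus stomach. Cartilage markers did not share 1 order of organs. Sox9, the regulator that switches on cartilage collagens and is also made in lung buds, read 1.96 in lung and 1.55, 0.49 and −0.37 in esophagus, stomach and intestine. Sox6, its partner in cartilage, read 0.49, −0.80, −0.54 and −1.34 in that order, and Hapln1, which links cartilage matrix, read −1.80, −0.62, −2.5 and −1.93, highest in esophagus. Acan, the main proteoglycan of cartilage, was not well above background in lung and read −3.50, −3.29 and −3.65 along the gut. The list of 7 measured cartilage markers, to which Sox9 gave the most, summed to 5.92, 4.28, 2.41 and 1.53 in the same order, while Matn1 and Cnmd, which mark differentiated cartilage, were not well above background on any array. Their part in the Col2a1 values was not tested.

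For the remaining fibrillar genes, the probes of a gene disagreed. Col11a2, a partner chain of type XI collagen, read −3.62, −4.25 and −4.43 in esophagus, stomach and intestine, with its second probe in the opposite order (−4.99, −4.63 and −3.75). Col24a1 read −4.01, −4.21 and −3.21 in esophagus, stomach and intestine, and its second probe was lowest in intestine at −6.58. Col27a1, made in cartilage and some epithelia, was highest in lung at −0.65, against −1.87, −1.52 and −1.64 in esophagus, stomach and intestine. Lung exceeded esophagus 2.33-fold by this probe, but the second Col27a1 probe was not well above background in lung, and the mean of both turned the sign. Over the class, the median of an organ's level minus the mean of the others was 0.50 in lung and 0.09, −0.30 and −0.43 in esophagus, stomach and intestine, from 8 genes. Over all genes it was 0.14, −0.20, −0.01 and −0.03, and the fibrillar lung median turned to −0.35 with normexp and −0.53 with the mean of all probes.

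**Figure D4:**
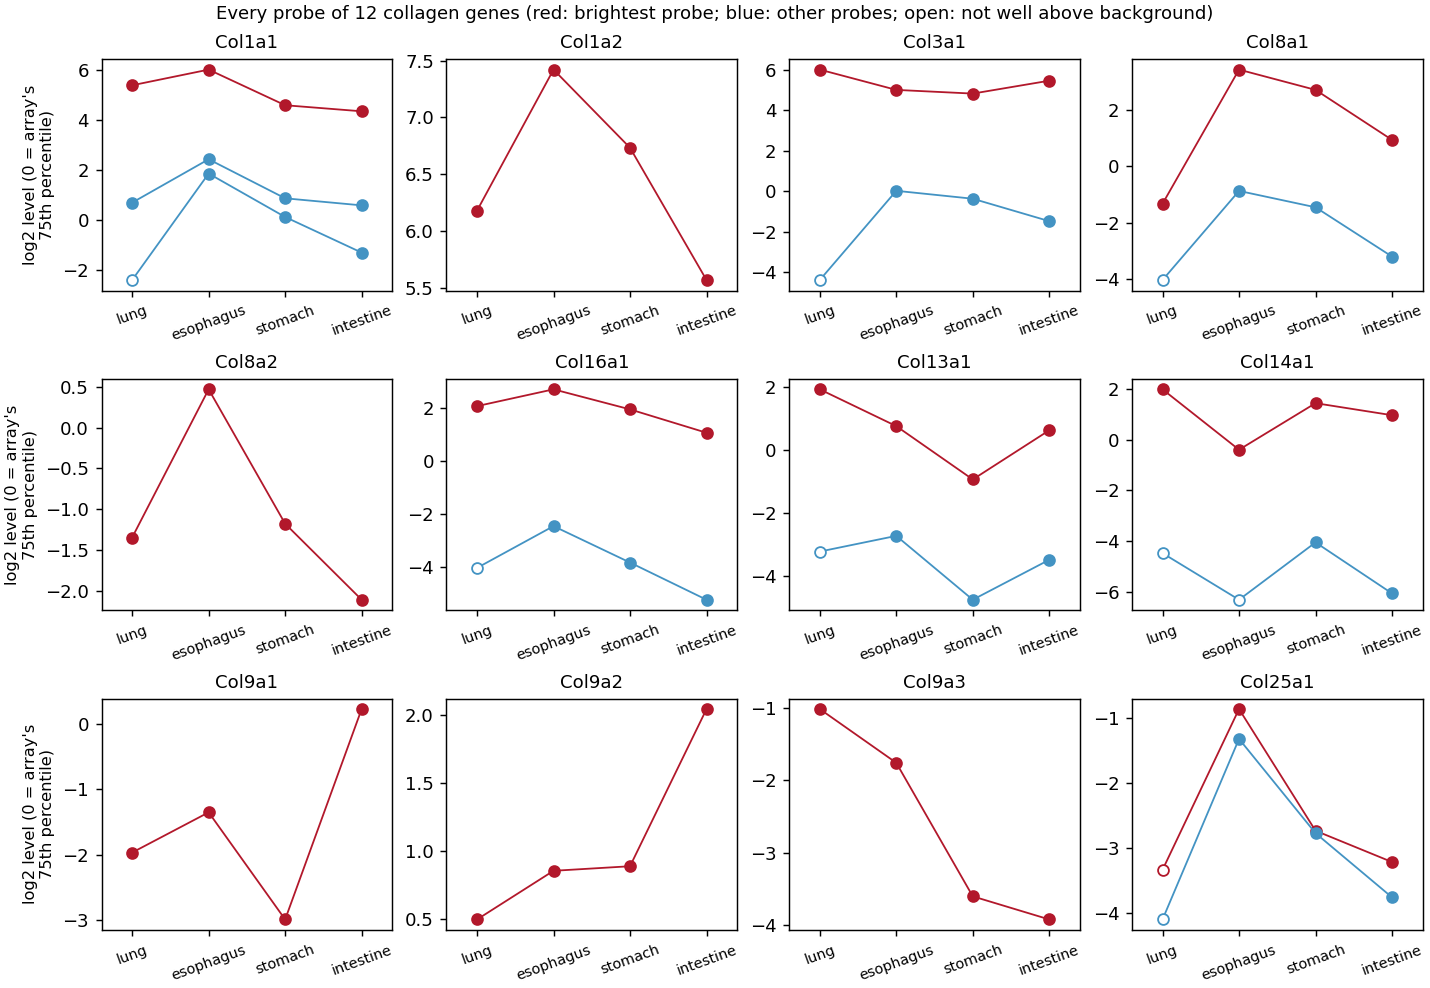
Log2 level (0 is the array's 75th percentile) of every probe of 12 collagen genes on the 4 arrays: the brightest probe is red, other probes blue, and open points were not well above background. The probes of Col1a1, Col8a1, Col16a1 and Col25a1 fall from esophagus through stomach to intestine, and those of Col3a1 part at intestine.

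Of the 6 basement membrane genes measured on all arrays, 4 were highest in intestine (Col4a2, Col4a4, Col4a6 and Col18a1), where 19.6% of all genes were. Their margins over the next array were small, at 1.28-fold, 1.39-fold, 1.01-fold and 1.05-fold in that order. Col15a1 was highest in esophagus and Col4a1 in lung. Col4a6 and Col4a1 lost the highest place with normexp and with quantile normalization. Col4a1 and Col4a2 encode the chains of the common type IV sheet. Col4a1 read 3.53 in lung and 2.78, 2.41 and 3.44 in esophagus, stomach and intestine, and Col4a2 read 1.84, 2.24, 1.73 and 2.60. Intestine exceeded stomach by 2.04-fold for Col4a1 and by 1.83-fold for Col4a2. It exceeded esophagus by 1.57-fold for Col4a1 and 1.28-fold for Col4a2, a smaller step. These partners differed in lung: lung exceeded stomach 2.18-fold for Col4a1, which turned with normexp, and 1.08-fold for Col4a2. The second probes again had intestine highest, at 2.26 for Col4a1 (1.30, 1.24 and 1.35 in lung, esophagus and stomach) and at 0.79 for Col4a2 (−0.71, 0.38 and −0.48).

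The minor type IV chains varied in their order of organs. Col4a4, a chain of the kidney filter, read −1.28 in lung and −1.04, −0.43 and 0.05 in esophagus, stomach and intestine, and intestine exceeded lung by 2.51-fold (1.42-fold with normexp) and esophagus by 2.13-fold. Col4a6, found with Col4a5 in the sheet under smooth muscle and epithelia, read −1.63 in lung and −2.41, −1.95 and −1.61 in esophagus, stomach and intestine. Col4a5 was not well above background in lung and read −2.32, −2.80 and −2.69 in the gut arrays, within 1.40-fold of each other. Col15a1 and Col18a1 encode collagens that link basement membranes to the tissue beneath. Col15a1 read −1.12 in lung and −0.13, −0.65 and −0.78 in esophagus, stomach and intestine, and Col18a1 read 3.91, 3.94, 4.16 and 4.24. Under the scaling used, Col18a1 was the least variable of the collagens measured on all arrays, within 1.26-fold. Its second probe read 2.73 to 2.76 on every array. With normexp, however, Col18a1 was at least 2-fold below every other array in lung, a place shared only with Col8a1.

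The median over the type IV chains of an organ's level minus the mean of the others was 0.53 in intestine, −0.34 in esophagus, −0.08 in stomach and −0.03 in lung, from 5 chains. With Col15a1 and Col18a1 added, it was 0.38 in intestine and −0.17 in esophagus. Over all genes it was −0.03 in intestine and −0.20 in esophagus, so that the esophagus value lay near that of all genes. Liver markers were also highest in intestine, with 3 of 4 (Alb, Afp and Apoa1) at least 2-fold above every other array and summed levels of 58.2 there, against 25.1, 9.52 and 3.16 in lung, esophagus and stomach. Alb lost its place above every other array with median centring and Apoa1 with normexp. Endothelial markers summed to 8.93 in intestine, 7.28 in esophagus, 6.25 in lung and 5.96 in stomach. Their part in the type IV values was not tested.

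Among FACIT collagens, the 3 chains of type IX collagen, which decorates cartilage fibrils, had separate patterns. Col9a1 read −1.96 in lung and −1.35, −2.98 and 0.23 in esophagus, stomach and intestine, and intestine exceeded stomach by 9.26-fold, lung by 4.56-fold and esophagus by 2.98-fold. With normexp the differences from stomach and lung were 4.57- and 1.60-fold. Col9a2 read 0.50, 0.86, 0.89 and 2.04, and intestine exceeded the other organs by 2.22- to 2.92-fold. Col9a3 went the opposite way, from −1.01 in lung through −1.76 in esophagus and −3.61 in stomach to −3.93 in intestine. Lung exceeded intestine by 7.54-fold and esophagus exceeded it by 4.50-fold for this chain. Each type IX gene had 1 probe, so the split between chains rests on single probes, and each gene kept its highest organ under the 4 other scalings.

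Col14a1 encodes a collagen that bridges interstitial fibrils. It was the only collagen at least 2-fold below every other array in esophagus (1 of 27, background 0.305%), a place it lost with the mean of its probes. It read 1.98 in lung and −0.40, 1.44 and 0.96 in esophagus, stomach and intestine, so that lung exceeded esophagus by 5.21-fold (2.57-fold with normexp and 7.82-fold with median centring) and stomach exceeded it by 3.57-fold. Its second probe was not well above background in lung or esophagus and read −4.05 in stomach and −6.06 in intestine. Col16a1, a fibril-associated collagen of smooth muscle and fibroblasts, followed type I. It read 2.07 in lung and 2.70, 1.95 and 1.06 in esophagus, stomach and intestine, and esophagus exceeded intestine by 3.12-fold. The second Col16a1 probe fell in the same order along the gut arrays, from −2.46 through −3.84 to −5.24. Col19a1, a collagen of muscle and its basement membrane, was well above background only in esophagus (−4.55) and stomach (−3.58), and its level in stomach was at least 10.1-fold that in intestine, a bound that was 3.74-fold with normexp, 5.28-fold with quantile normalization and 2.91-fold with the mean of probes. Of its other probes, 1 was above background in stomach only, at −4.54, and the other on no array.

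The largest difference of any collagen was that of Col8a1. Type VIII collagen is a short-chain, network-forming collagen of vessel walls and of the membrane behind the cornea, built from the products of Col8a1 and Col8a2. Col8a1 read −1.33 in lung and 3.44, 2.72 and 0.94 in esophagus, stomach and intestine. Esophagus exceeded lung by 27.2-fold and intestine by 5.65-fold, and stomach exceeded lung by 16.5-fold. With normexp, esophagus exceeded lung by 11.46-fold and stomach exceeded lung by 6.91-fold, and with median centring the first was 18.1-fold. Col8a1 was the only collagen at least 2-fold below every other array in lung (1 of 34, 2.94%), a share near the background of 2.53%. It also passed 4-fold (background 0.366%). The second Col8a1 probe was not well above background in lung and read −0.87, −1.45 and −3.20 along the gut, the same order. Col8a2 read −1.34 in lung and 0.47, −1.18 and −2.11 in esophagus, stomach and intestine, and esophagus exceeded lung by 3.51-fold, stomach by 3.13-fold and intestine by 5.95-fold. With normexp the difference from lung was 1.42-fold. Both chains thus peaked in esophagus and were lower in intestine than in stomach, but in lung Col8a1 lay 4.82-fold under intestine (2.29-fold with normexp) while Col8a2 lay 1.69-fold over it. Smooth muscle markers, whose sums are given above, were also highest in esophagus, and their part in these values was not tested.

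Col8a2 and Col25a1 were the only collagens at least 2-fold above every other array in esophagus (2 of 36, background 1.23%). Col25a1 encodes a membrane collagen of neurons and developing muscle. It was not well above background in lung and read −0.86, −2.73 and −3.21 in esophagus, stomach and intestine, so that esophagus exceeded stomach by 3.66-fold, intestine by 5.10-fold and lung by at least 2.90-fold. With normexp the bound against lung was 1.05-fold and the difference from stomach 2.32-fold. Its second probe read −1.32, −2.77 and −3.75 along the gut. The skeletal muscle marker Myog read 0.28, −4.91 and −5.68 in esophagus, stomach and intestine, and its part in the Col25a1 level was not tested. Col25a1 lost this place with median centring, and both lost it with normexp background correction, under which Col1a1 and Col2a1 held it.

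Col13a1, another membrane collagen, gathers at cell contacts and the neuromuscular junction. It was the only collagen at least 2-fold above every other array in lung (1 of 27, 3.7%), a share under the background of 6.78%. It read 1.92 in lung and 0.75, −0.94 and 0.62 in esophagus, stomach and intestine, and lung exceeded stomach by 7.25-fold (3.10-fold with normexp). The place above every other array in lung was lost with quantile normalization, with normexp, when probes were averaged and with the percentile taken over probes above background on all arrays. Under quantile normalization and normexp Col27a1 and Col9a3 held it, and with median centring they joined Col13a1. Stomach was also at least 2-fold below every other array for Col13a1, and among the other collagens for Col9a1 alone (2 of 27, background 0.505%). Col9a1 lost that place with normexp and with the percentile over probes above background on all arrays. The second Col13a1 probe, not well above background in lung, was again lowest in stomach at −4.76, against −2.73 in esophagus and −3.49 in intestine. No collagen was at least 2-fold above every other array in stomach (background 0.404%) or below every other in intestine (background 1.61%). With the lung or the stomach array left out 5 were below in intestine, and 6 were above in esophagus without lung and 4 without stomach. Leaving out an array eases these calls for every gene. No share of all genes was computed with an array left out, so these counts have no background beside them.

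Type VI collagen forms beaded microfibrils around cells, and its chains differed in how they varied. Col6a1 read 0.60 in lung and 1.22, −0.12 and 0.92 in esophagus, stomach and intestine, and Col6a2, its constant partner, read 0.40, 1.0, 0.08 and 0.59. Both were lowest in stomach, with esophagus 2.52-fold above it for Col6a1 and 1.89-fold for Col6a2, and the place of stomach held under the 4 other scalings. Col6a4, a chain that can take the place of the third partner, had another pattern. It read −2.83, −3.08 and −0.54 in esophagus, stomach and intestine and was not well above background in lung. Intestine exceeded stomach by 5.80-fold and esophagus by 4.89-fold (2.66- and 2.67-fold with normexp), but the second Col6a4 probe put intestine lowest (−3.74, −3.30 and −3.83 in esophagus, stomach and intestine), so the probes disagreed. With Col9a1 and Col9a2, Col6a4 made up the 3 collagens at least 2-fold above every other array in intestine (3 of 34, background 1.13%). Of these, Col9a2 alone held that place with normexp. Col6a6 was well above background only in esophagus, at −4.05, which is at least 7.30-fold above intestine and at least 3.30-fold above stomach. With normexp these bounds were 3.0- and 1.07-fold.

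The remaining collagens mostly followed the esophagus-high pattern. Col7a1, the anchoring fibril of stratified epithelium, read −0.33 in lung and 0.00, −0.75 and −1.52 in esophagus, stomach and intestine, and esophagus exceeded intestine by 2.87-fold. Col17a1, part of the hemidesmosome that ties basal epithelial cells to their membrane, read −2.80, −3.63 and −4.70 in esophagus, stomach and intestine, a 3.75-fold difference end to end (2.34-fold with quantile normalization). Its second probe was not well above background on any array. Col26a1, which encodes a collagen-like secreted protein, read 3.61 in lung and 4.25, 2.83 and 3.29 in esophagus, stomach and intestine. Col23a1, a membrane collagen, was the exception, with −0.40 in lung and 0.52, 0.88 and 1.29 in esophagus, stomach and intestine, while its second probe had the gut arrays in the opposite order. Over the class of other collagens the median of esophagus minus the other organs was 0.81, against −0.20 over all genes, and it was 0.38 with arrays centred on the median, 0.46 with normexp and 1.16 without the lung array.

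By the largest difference between any pair of organs, 11 of the 36 detected collagens were at least 4-fold apart, 14 were from 2- to 4-fold apart and 11 were less than 2-fold apart. The 11 at least 4-fold apart were Col8a1, Col19a1, Col9a1, Col5a3, Col9a3, Col6a6, Col13a1, Col8a2, Col6a4, Col14a1 and Col25a1. None of them was a chain of type I, III or IV collagen. The largest of all pairs, bounds included, was not counted over all genes. These counts therefore have no background beside them and do not show that collagens varied more than other genes. Where a gene had at least 2 probes well above background on both arrays, the sign of the esophagus minus stomach difference was shared in 13 of 18 collagens (63.9% of all genes with such probes), and in 4 of 4 where the brightest probe differed at least 2-fold (92.9%). For esophagus minus intestine it was shared in 12 of 19 collagens (61.0%) and in 5 of 6 at 2-fold (74.9%). For stomach minus intestine it was shared in 12 of 19 (61.1%) and in 3 of 4 at 2-fold (76.5%). With lung only 6 collagens had such probes: the sign was shared in 4 of 6 for lung minus esophagus (58.1% of all genes), where none differed 2-fold, in 1 of 6 for lung minus stomach (57.0%) and 0 of 1 at 2-fold (61.2%), and in 3 of 6 for lung minus intestine (57.9%) and 2 of 2 at 2-fold (69.9%). These shares were close to those of all genes along the gut, and small differences between organs were often not shared by a gene's probes.

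The genes that make, process and bind collagen were described from 6 lists. Over all genes, 6.78% were at least 2-fold above every other array in lung and 1.23%, 0.404% and 1.13% in esophagus, stomach and intestine, and 2.53%, 0.305%, 0.505% and 1.61% were at least 2-fold below every other in the same order. The counts of the lists stand against these shares, and 1 gene above in lung out of 18 is near the lung share. Of 18 genes for modifying and folding the chains, all were detected, and 1 was at least 2-fold above and 1 at least 2-fold below every other array, both in lung. Ppib, which speeds the folding of the helix, read 6.03 in lung and 4.63, 4.80 and 4.46 in esophagus, stomach and intestine. P4ha2, a subunit of the enzyme that hydroxylates proline, read −0.91, 1.09, 0.84 and 0.24. Of 13 genes for processing and crosslinking, 10 were detected. Lung was at least 2-fold above every other array for Pcolce2 and Lox and below for Loxl2, and intestine was below for Lox. Lox, the enzyme that starts crosslinking of fibrils, had the widest range of this list: 0.92 in lung and −0.12, −3.38 and −5.00 in esophagus, stomach and intestine. Loxl2, a related enzyme, went the other way, with −0.83 in lung and 1.67, 1.55 and 0.49 along the gut. Pcolce2, an enhancer of propeptide removal, read 0.49 in lung and −0.86, −1.65 and −1.11 in esophagus, stomach and intestine.

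The proteoglycans and glycoproteins that coat fibrils resembled the type I genes only in part. All 10 were detected, with Dcn at least 2-fold above every other array in esophagus, Postn in intestine, and Dcn, Bgn and Fn1 at least 2-fold below every other array in lung. Dcn, the decorin that spaces type I fibrils, read 1.63 in lung and 5.19, 3.77 and 3.86 in esophagus, stomach and intestine. Bgn, which encodes the related biglycan, read −2.03, 0.09, −0.47 and −0.77, and Fn1, which encodes fibronectin, read −0.52, 1.75, 0.80 and 0.56. Postn, a matricellular protein of valves and periosteum, read 0.35 in lung and 0.62, −0.43 and 2.08 in esophagus, stomach and intestine. Lung was thus lowest for Dcn, Bgn and Fn1 but, under the scaling used, not for Col1a1 or Col1a2.

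Of 8 collagen receptor and uptake genes, 6 were measured. Itgb1, the common beta chain of collagen-binding integrins, was at least 2-fold above every other array in lung, at 2.12 against 0.96, 0.48 and 1.08 in esophagus, stomach and intestine. Itga1 and Ddr2, a type IV-binding integrin chain and a receptor for fibrillar collagen, were at least 2-fold below every other array in intestine. Ddr2 read −1.61 in lung and −0.87, −2.68 and −3.84 in esophagus, stomach and intestine, and Itga1 read −1.33, −0.87, −1.88 and −3.06. Both were highest in esophagus and lowest in intestine, as Col1a1 and Col1a2 were under the scaling used. Of 7 breakdown genes, 6 were detected, and Timp3, an inhibitor of collagenases held in the matrix, was at least 2-fold above every other array in esophagus, with 3.10 in lung and 4.24, 2.93 and 2.39 in esophagus, stomach and intestine. Of 9 basement membrane partners (laminins, nidogens and related genes), 7 were measured and none was at least 2-fold above or below every other array. Of the calls named from the 6 lists, Dcn below in lung, Lox below in intestine and Postn above in intestine held under the 4 other scalings and background corrections, and each of the others was lost under at least 1 of them.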

How the data were processed

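RNA of 4 organs was measured on 1 array each (Agilent, 1 colour, Cy3). Per the file headers, the authors read the scans with Feature Extraction 10.5.1.1 (protocol GE1_105_Dec08, array design 014868, sequences on mm8), and the deposited intensity is background-subtracted and not scaled between arrays. The deposited table of log2 values matched the values used here (r 0.99996 to 0.99998); nothing else states its scale, centring or direction. Its column medians were −3.56, −2.97, −3.17 and −3.47 for lung, esophagus, stomach and intestine.

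Each probe's processed signal was taken to log2, and the 75th percentile of its array (controls left out) was subtracted. Outlier spots were left out, copies averaged and 69 of 41174 probes dropped; no spot was saturated. Symbols came from the RefSeq table of GRCm38.p6, by accession, for 59.2% of probes, and promoter windows from RefSeq on the same build. A gene took its brightest probe by mean over arrays. An array not well above background entered at the higher of its value and the array's lowest level well above background (−2.39, −5.75, −5.78 and −6.92); no fold was given with both below. Class and list medians were taken after raising values to the lung level. With 1 array per organ, the number of arrays limits the precision and no test was run.

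Collagens were all named; full values were set for genes at least 4-fold apart, types I, III, IV, V and VI and genes whose probes disagreed, and further collagens were given values after these were seen. Other pathway genes were named where at least 2-fold above or below every other array. The members and lists were chosen with earlier results of these data known. Alternatives changed scaling, background correction (normexp, offset 50, on median signals, since the files used here hold no mean signal), source, probes, filter and arrays. Calculations used Python 3.11.15, numpy 2.4.6, pandas 2.3.3, R 4.3.3 and limma 3.58.1 and were tested on simulated data.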

Additional observations from a re-analysis of the deposited data

How the results depend on the processing

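Each result was recomputed under other scalings, another background correction, the authors' deposited table, other uses of probes and fewer arrays. Of 48 recalculations of the collagen medians between organs relative to all genes, 41 kept their sign and 7 turned it: lung minus stomach, lung minus intestine and stomach minus intestine, at 0.21, 0.0076 and −0.11 as reported, turned under some settings (for lung minus intestine also to −0.0869 with normexp and −0.0183 with only genes above background everywhere), and the pairs with esophagus under none of the 8 tried. Median centring, the percentile over probes above background everywhere and the deposited table leave these medians nearly as they were by construction. The deposited table changed no count by over 1.5 times. All-gene medians moved by 0.59 for lung minus esophagus and −0.50 for esophagus minus intestine with median centring, and by −0.65 to −0.72 for lung pairs with normexp. The cause of the changes below was not tested, except where an array, gene or probe was left out. No paired analysis was possible because each organ had 1 array. The dim lung array limits what can be compared with lung.

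Counts at least 2-fold above every other array: for lung they were 3 with median centring, 0 with the percentile over probes above background everywhere, 2 with quantile normalization, 2 with normexp, 0 with the mean of all probes, 4 with no filter and 2 to 2 leaving out 1 array. For esophagus they were 1 with median centring, 4 with the mean of probes, 1 with only genes above background everywhere and 2 to 6 leaving out 1 array. They were 0 to 1 for stomach leaving out 1 array and 1 for intestine with normexp. Counts below every other array were for lung 2 with the other percentile, 2 with normexp, 3 with the mean of probes and 1 to 2 leaving out 1 array, for esophagus 0 with the mean of probes, for stomach 1 with the other percentile and 1 with normexp, and for intestine 2 with the mean of probes, 4 with no filter and 0 to 5 leaving out 1 array. For these counts, and for those between 2 organs, no share of all genes was computed under the other settings. They therefore stand without a background.

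Medians relative to all genes: lung minus esophagus was −0.30 with normexp and −0.90 with no filter, lung minus stomach −0.0427 with the mean of probes and −0.0827 with no filter, and lung minus intestine −0.24 with the mean of probes. Esophagus minus stomach was 0.48 with normexp, and stomach minus intestine 0.0397 with normexp and 0.0234 with no filter. Highest and lowest counts, alternatives chosen after seeing the data, have the share of all genes in brackets. Lung was highest for 4 (25.01%) with normexp and 3 (41.2%) with the mean of probes. It was highest for 8 to 13 (53.0% to 55.79%) leaving out 1 array. Lung was lowest for 3 (8.57%) with median centring and 13 of 27 (51.25%) with normexp, the latter near the share of all genes. It was lowest for 6 to 11 (21.26% to 29.5%) leaving out 1 array. Esophagus was highest for 7 (5.0%) and lowest for 9 (70.1%) with median centring. Leaving out 1 array it was highest for 11 to 17 (15.1% to 26.9%) and lowest for 4 to 7 (48.6% to 50.5%). Stomach was highest for 2 (18.5%) with normexp, 3 (19.2%) with the mean of probes and 2 (16.2%) with no filter. It was highest for 4 (25.8% to 33.8%) leaving out 1 array, and lowest for 4 (9.45%) with normexp. Intestine was highest for 8 to 13 (21.2% to 39.3%) leaving out 1 array. It was lowest for 15 (31.3%) with no filter and for 10 to 14 (28.2% to 34.9%) leaving out 1 array.

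Class medians, an organ minus the others: fibrillar lung was −0.35 with normexp and −0.53 with the mean of probes, fibrillar esophagus −0.34 with median centring and 0.81 with the mean of probes, fibrillar stomach 0.12 with the mean of probes and fibrillar intestine −0.0992 with normexp. Basement membrane esophagus was −0.55 with median centring. FACIT lung was 0.74 with no filter, FACIT esophagus −0.53 with median centring, 0.58 with no filter and −0.41 to 0.16 leaving out 1 array, and FACIT intestine −0.67 with the mean of probes, −0.61 with no filter and −0.69 to 0.17 leaving out 1 array. Other collagens were in lung 0.071 with median centring, 0.21 with normexp and −0.50 to 0.20 leaving out 1 array, in esophagus 0.38 with median centring, 0.46 with normexp and 0.65 to 1.16 leaving out 1 array, in stomach −0.26 with normexp, and in intestine −0.53 with no filter and −0.55 to 0.25 leaving out 1 array. Of single-gene differences of at least 2-fold, 522 of 529 recalculations kept their direction and 7 turned it, and 68 moved by over 1.5 times. Part of the 529 could hardly turn, so the share that kept direction is no measure of stability. The 68 with the deposited table and the 54 with only genes above background everywhere reuse the same or nearly the same values. Averaging probes changes nothing for a gene with 1 probe. The 7 that turned came from normexp (4) and the mean of probes (3). With the mean of probes lung minus esophagus was −0.65 for Col27a1 and −1.70 for Col3a1, and lung minus stomach −1.42 for Col3a1. With normexp, Col3a1 was −0.33 for lung minus esophagus and −0.0622 for lung minus stomach, Col4a1 −0.0216 for lung minus stomach and Col1a1 −0.43 for lung minus intestine.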
